A study of Mus musculus with 18 samples.

Results

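The mRNA levels of 9 plasma membrane carriers of cystine and other amino acids were followed in mouse dorsal root ganglia, which hold the cell bodies of the sensory neurons that join limb and spinal cord. The genes were Slc7a11, Slc3a2, Slc7a5, Slc7a1, Slc7a3, Slc38a1, Slc38a2, Slc1a4 and Slc1a5, chosen by symbol, and all 9 were among the 15730 genes of the count table. Slc7a11 encodes xCT, which takes up cystine in exchange for glutamate, and cystine is reduced inside the cell to the cysteine that limits glutathione synthesis. Slc3a2 encodes the heavy chain (4F2hc, CD98) that brings xCT and LAT1, the large neutral amino acid exchanger encoded by Slc7a5, to the cell surface. The other carriers bring in arginine and lysine (Slc7a1 and Slc7a3), glutamine and other small neutral amino acids (Slc38a1 and Slc38a2), or exchange alanine, serine, cysteine and glutamine (Slc1a4 and Slc1a5). Several of these genes are known targets of ATF4, the transcription factor of the amino acid response, and Slc7a11 is also a known target of NRF2, which responds to oxidants.

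RNA was sequenced from the sciatic ganglia of C57BL/6 mice aged 6 to 8 weeks, 24 hours after surgery, in 18 samples that formed 6 groups of 3. Each sample pooled the ganglia of 2 mice. In SNA_Saline the sciatic nerve, which holds the peripheral axons of these neurons, was injured with saline present, and Sham_Saline was the sham operation with saline. SNA_NAC was the same nerve injury with N-acetyl-cysteine (NAC), a cysteine donor and thiol antioxidant, at 30 mM. Sham_H202, spelled here as in the labels, was the sham operation with hydrogen peroxide at 13 mM. DCA was an injury of the dorsal columns, where the central axons of the same neurons ascend the cord, and LAM was the laminectomy (removal of vertebral bone) that served as its surgical control. LAM and DCA are not described as having received saline, so the 2 control groups differ in surgical site and possibly in fluid. The ganglion was sequenced whole, and in such bulk RNA fewer cells of a type and less RNA per cell cannot be told apart.

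On the mouse GRCm38 assembly the 9 genes lie on 8 chromosomes, and Slc1a5 is the only one of them on the plus strand. Slc7a11 (ENSMUSG00000027737) spans chr3:49892526-50443614, Slc3a2 (ENSMUSG00000010095) spans chr19:8706882-8723369 and Slc7a5 (ENSMUSG00000040010) spans chr8:121881150-121907694. Slc7a1 (ENSMUSG00000041313) spans chr5:148327410-148399904 and Slc7a3 (ENSMUSG00000031297) spans chrX:101079210-101086020. Slc38a1 (ENSMUSG00000023169) at chr15:96571418-96642913 and Slc38a2 (ENSMUSG00000022462) at chr15:96687392-96699730 are neighbours in the same orientation. Slc1a4 (ENSMUSG00000020142) spans chr11:20302180-20332713 and Slc1a5 (ENSMUSG00000001918) spans chr7:16781340-16798274.

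Promoter sequences from RefSeq (GRCm38.p6) were matched for 5 of the 9 genes, Slc7a11, Slc3a2, Slc7a1, Slc38a2 and Slc1a4, and the 250 bases before each annotated start were searched on both strands for 2 motifs. The first was the C/EBP-ATF response element TGATGNAA, bound by ATF4, which 3.45% of 32851 promoters of that length held. The second was the core of the antioxidant response element, TGACNNNGC, bound by NRF2, which 10.2% held. Shown are 2 promoters, that of the cystine carrier Slc7a11, the only one of the 5 with the first motif, and that of Slc1a4, the gene with the clearest response to nerve injury in the results that follow. Both run 5′ to 3′ on the minus strand, Slc7a11 at chr3:50443614-50443863 and Slc1a4 at chr11:20332714-20332963, with motif matches in capitals.
Slc7a11: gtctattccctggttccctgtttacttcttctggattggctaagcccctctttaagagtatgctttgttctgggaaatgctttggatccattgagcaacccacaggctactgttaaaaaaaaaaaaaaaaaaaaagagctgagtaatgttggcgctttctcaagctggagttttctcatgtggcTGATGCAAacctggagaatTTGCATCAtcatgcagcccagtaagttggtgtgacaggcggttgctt
Slc1a4: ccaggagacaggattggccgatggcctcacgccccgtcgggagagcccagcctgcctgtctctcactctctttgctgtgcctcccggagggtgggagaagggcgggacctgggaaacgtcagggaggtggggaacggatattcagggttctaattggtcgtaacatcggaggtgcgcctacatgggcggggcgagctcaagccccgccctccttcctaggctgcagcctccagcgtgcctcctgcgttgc
The Slc7a11 window held TGATGCAA at positions -66 to -59 from the start and the same motif on the opposite strand, TTGCATCA, at -47 to -40. The Slc1a4 window held neither motif. The antioxidant response element core was found at -11 to -3 of Slc7a1 (GCGCTGTCA, on the opposite strand) and at -27 to -19 of Slc38a2 (TGACGCGGC). It was in none of the other 4 windows, which include a second annotated promoter of Slc7a1. These matches describe letters in a window and not factor binding.

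Total counts per sample ran from 6472476 to 42435331. Values are CPM, counts relative to library size, after TMM normalization, a scaling that makes libraries of different depth comparable, and tests are edgeR quasi-likelihood tests with p-values adjusted by Benjamini-Hochberg over all 15730 genes and a threshold of 0.05. All 10 sensory neuron markers and all 5 satellite glia markers had rows in the count table of this labelled ganglion tissue. The summed CPM of the neuron markers ran from 9020 to 14105 in Sham_Saline and from 8411 to 9968 in SNA_Saline, and that of the satellite glia markers from 1669 to 2770 and from 1744 to 2113. Samples differed in how the level of a gene depended on the GC share of its transcript: the slope ran from -0.22 (Sham_H202 replicate 3) to 0.43 log2 CPM per SD of GC share (Sham_Saline replicate 2), and the Sham_Saline samples had -0.04, 0.43 and 0.16. Summed skeletal muscle markers ran from 6.11 to 1171 CPM within Sham_Saline.

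The levels of the 9 transcripts spanned more than 2 orders of magnitude on the length-corrected FPKM scale (fragments per kilobase and library size). Slc38a2, the adaptive glutamine and alanine carrier SNAT2, was the most abundant, at 58.4 to 93.5 FPKM over the 18 samples with a median of 76.5. Slc3a2, the shared heavy chain, followed at 27.9 to 45.3 FPKM with a median of 36.1. Slc1a4, the neutral amino acid exchanger ASCT1, ranged from 15.7 to 28.3 FPKM with a median of 18.2. These 3 genes kept their order in all 18 samples. Slc7a5, with a median of 13.0 FPKM, and the cationic carrier Slc7a1, with a median of 12.5, were not ordered, since Slc7a5 was higher in 8 of 18 samples. Slc38a1 (SNAT1), with a median of 7.58 FPKM, was above Slc1a5 (ASCT2), with a median of 6.46, in 11 of 18 samples, so these neighbours were not ordered either. Slc7a3, the cationic carrier CAT3, lay between 1.01 and 2.95 FPKM. Slc7a11 was the least abundant in every sample, between 0.205 and 1.21 FPKM with a median of 0.509.

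The heavy chain was far more abundant than the cystine-carrying light chain at the mRNA level. The ratio of Slc3a2 to Slc7a11 FPKM ran from 27.4 to 204 with a median of 72.1. The ratio of Slc3a2 to the other light chain, Slc7a5, stayed between 2.39 and 3.36 with a median of 2.72. The Slc3a2 to Slc7a5 ratio was 3.03 to 3.36 in Sham_H202 and 2.54 to 2.93 in Sham_Saline, without overlap, a difference that was not tested. SNA_NAC replicate 2 lay within the Sham_H202 range. The ratio of Slc3a2 to Slc7a11 overlapped between Sham_H202 and Sham_Saline. How often ratios of other genes separate these groups was not computed. The lower Slc7a5 level in Sham_H202, which enters this ratio, is described below.

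The spread between replicates limited what could be seen for the cystine carrier. Slc7a11 had 30 to 409 counts per sample, and its median within-group SD of 0.46 log2 CPM was at percentile 94.0 of all genes. Slc7a3, with 25 to 383 counts, had an SD of 0.14 log2 CPM, at percentile 29.1. The median SD of Slc1a4 was 0.075 log2 CPM, at percentile 6.08, and that of Slc1a5 was 0.060, at percentile 2.77. For Slc1a5 the median hides a wider SD of 0.33 in Sham_Saline and 0.16 in SNA_Saline. The SE of a fold change was smaller for Slc1a4 and Slc1a5 than for Slc7a11 in every comparison. In SNA_Saline against Sham_Saline it was 0.085 for Slc1a4, 0.13 for Slc1a5 and Slc3a2, and 0.41 for Slc7a11.

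**Figure D1:**
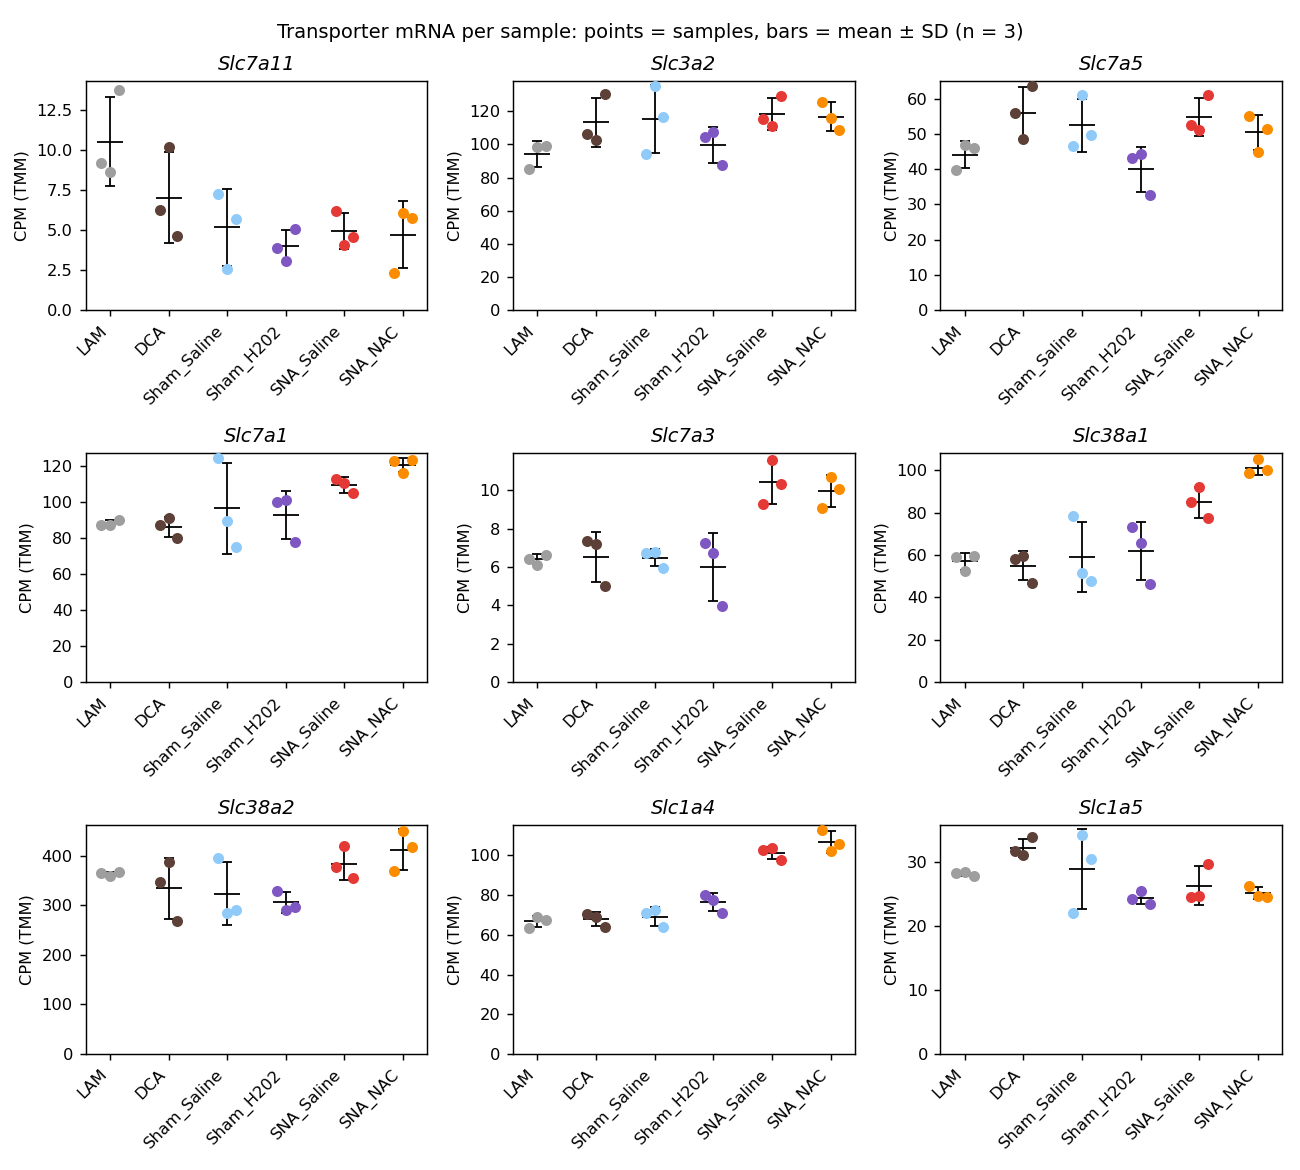
CPM after TMM normalization of the 9 transporter mRNAs in each of the 18 samples (points, in replicate order within a group), with the group mean and SD (bars, n = 3) on linear axes that start at 0. The 6 samples with sciatic nerve injury are above all 12 others for Slc1a4 and Slc7a3, and the 3 LAM samples include the highest Slc7a11 value, 13.7 CPM.

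The first comparison, SNA_Saline against Sham_Saline, gives the response of the carriers to peripheral axon injury. One of the 9 genes, Slc1a4, passed the test, and it rose. Slc7a3 and Slc38a1 had estimates of similar size that did not pass, and the cystine carrier Slc7a11, its heavy chain Slc3a2 and Slc7a5 had estimates near 0. Over all genes 2.73% passed in this comparison. The median log2 fold change of the 9 genes was 0.18, beside -0.03 over all genes. Groups did not overlap in CPM for 2 of the 9, Slc1a4 and Slc7a3, both higher after injury, beside 19.1% of all genes in either direction.

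Slc1a4, which exchanges small neutral amino acids including serine and cysteine, was at 71.2, 72.4 and 63.9 CPM in the Sham_Saline samples and at 103, 104 and 97.7 CPM in the SNA_Saline samples. The lowest injured sample lay well above the highest sham sample. The means were 69.2 ± 4.60 and 101.3 ± 3.15 CPM (SD, n = 3), a 1.46-fold rise (log2 fold change 0.55, SE 0.085, edgeR adjusted p = 0.00132). Within the sequencing lanes, each of which held 1 sample per group, the log2 difference was 0.53, 0.52 and 0.61. The rise passed in 17 of 18 alternative analyses and was lost where only these 2 groups entered the fit (log2 fold change 0.54, adjusted p = 0.179 in edgeR). In that fit the spread rests on 6 samples. The summed CPM of all 10 marker lists overlapped between the 2 groups. By single gene, 8 of 10 neuron and 5 of 6 Schwann cell markers had estimates below 0. So had 6 of 6 skeletal muscle, 5 of 5 red blood cell, 4 of 6 endothelial, 3 of 5 neutrophil and 3 of 6 macrophage markers. Satellite glia and fibroblast markers were above 0 in 3 of 5 each, as was the 1 measured oligodendrocyte marker. None of the markers passed. Whether shifts in cell makeup had a part in the rise was not tested.

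Slc1a5 (ASCT2), the related glutamine exchanger, was at 22.1, 34.3 and 30.5 CPM in Sham_Saline and at 24.5, 24.8 and 29.8 CPM in SNA_Saline. The groups overlapped entirely. The log2 fold change was -0.14 (95% interval -0.42 to 0.15, edgeR adjusted p = 0.535), and its sign turned under offsets for GC share and length, where it was 0.17.

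Of the cationic carriers, Slc7a3 (CAT3) was at 6.72, 6.78 and 5.97 CPM in Sham_Saline and at 9.30, 11.6 and 10.3 CPM in SNA_Saline. Every injured sample lay above every sham sample. The fold was 1.59 (log2 fold change 0.67, SE 0.19), with an edgeR adjusted p of 0.0657, so it did not pass, whereas DESeq2 called it (adjusted p = 0.0166). These levels rest on 88 to 161 counts per sample. Slc7a1 (CAT1), much more abundant, was at 125, 89.8 and 75.4 CPM in Sham_Saline and at 113, 111 and 105 CPM in SNA_Saline. Sham_Saline replicate 1 lay above all the injured samples and the other sham samples below them. Its log2 fold change was 0.18 (SE 0.14, edgeR adjusted p = 0.431).

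Replicate 1 was also the highest sham sample for the glutamine carriers of the Slc38 family. Slc38a1 (SNAT1) was at 78.2, 51.7 and 47.7 CPM in Sham_Saline and at 84.8, 92.2 and 77.6 CPM in SNA_Saline. Only Sham_Saline replicate 1 reached the lowest injured sample. The log2 fold change was 0.52 (SE 0.18, edgeR adjusted p = 0.125). Slc38a2 (SNAT2) was at 396, 285 and 289 CPM in Sham_Saline and at 376, 419 and 355 CPM in SNA_Saline, where again replicate 1 of the sham group lay inside the injured range. Its log2 fold change was 0.25 (SE 0.14, edgeR adjusted p = 0.295), and 0.08 with offsets for GC share and length.

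None of the genes of the heteromeric exchangers passed, though Slc7a5 did with offsets for GC share. Slc3a2 was at 94.2, 135 and 116 CPM in Sham_Saline and at 115, 111 and 129 CPM in SNA_Saline. The injured samples lay within the sham range. The log2 fold change was 0.04 (95% interval -0.24 to 0.32, edgeR adjusted p = 0.861). Slc7a5 was at 46.4, 60.9 and 49.8 CPM in Sham_Saline and at 52.6, 51.0 and 61.0 CPM in SNA_Saline, with a log2 fold change of 0.07 (95% interval -0.24 to 0.37). With the offsets it was 0.36 (edgeR adjusted p = 0.00159). Slc7a11 was at 7.24, 2.57 and 5.70 CPM in Sham_Saline and at 6.20, 4.11 and 4.56 CPM in SNA_Saline. The sham samples spanned the injured ones. The log2 fold change of -0.04 had a 95% interval from -0.90 to 0.82, so neither a fall nor a rise of up to about that size was detectable for Slc7a11 at this depth and spread.

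**Figure D2:**
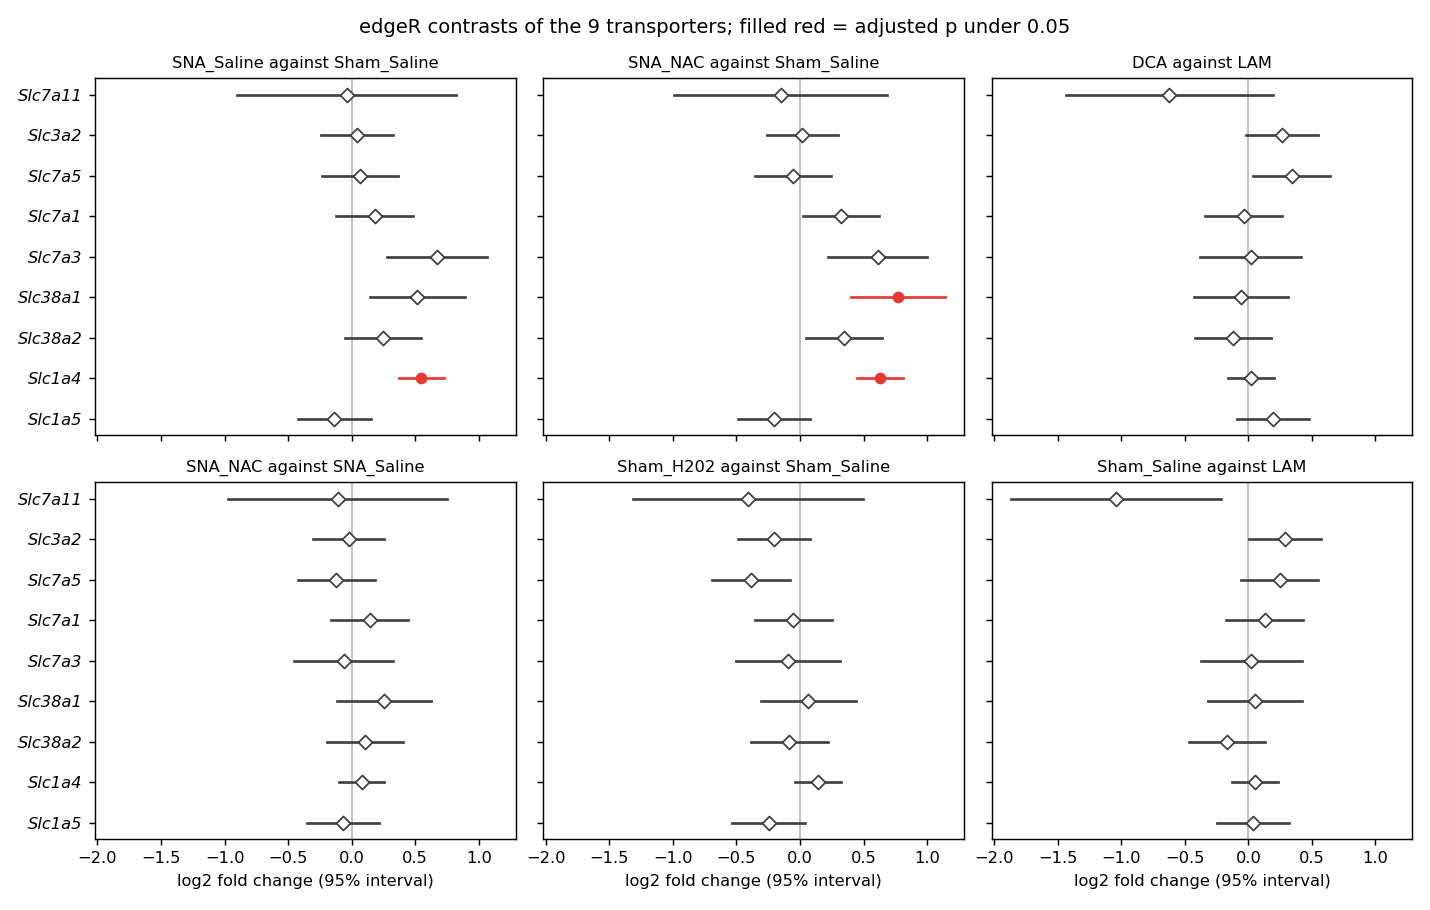
Log2 fold change (diamonds or filled circles) with its 95% interval (lines) for the 9 transporters in 6 comparisons of 3 samples against 3, from one edgeR fit, where filled red marks an adjusted p under 0.05. Slc1a4 (0.55 and 0.63) and Slc38a1 (0.77) are the filled points, all in comparisons of an injured sciatic nerve with Sham_Saline, and the widest intervals are those of Slc7a11.

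The comparison of SNA_NAC with Sham_Saline gives the injury response in the presence of the cysteine donor. It uses the same Sham_Saline samples as the comparison before, so the 2 sets of values are not independent. Slc1a4 and Slc38a1 rose, 2 of the 9 genes, where 3.32% of all genes passed. A total of 3 genes, Slc7a3, Slc38a1 and Slc1a4, did not overlap between the groups, all higher after injury, beside 21.2% of all genes in either direction. The median log2 fold change of the 9 was 0.32, beside -0.01 over all genes.

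Slc1a4 was at 113, 102 and 106 CPM in SNA_NAC, all above the Sham_Saline samples, with a log2 fold change of 0.63 (SE 0.084, edgeR adjusted p = 3.01e-04). Without the other groups in the fit the edgeR adjusted p was 0.0932. Slc38a1 was at 98.5, 105 and 99.9 CPM in SNA_NAC, above even the high sham sample of 78.2 CPM. Its mean was 101.1 ± 3.47 CPM against 59.2 ± 16.6 CPM (SD, n = 3), with a log2 fold change of 0.77 (SE 0.17, edgeR adjusted p = 0.0215). That call was lost in 6 of 18 alternatives: with only the compared groups in the fit (edgeR adjusted p = 0.192), without Sham_Saline replicate 2 (0.120) or 3 (0.0921), and without SNA_NAC replicate 1 (0.0528), 2 (0.0955) or 3 (0.0749).

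The remaining carriers in SNA_NAC did not pass in edgeR with all 18 samples and no offsets for GC share. Slc7a3 was at 9.08, 10.7 and 10.1 CPM, above all the sham samples, with a log2 fold change of 0.61 (SE 0.18, edgeR adjusted p = 0.0778). DESeq2 called Slc7a3 (adjusted p = 0.0257). Slc7a1 was at 123, 117 and 124 CPM and Slc38a2 at 369, 450.2 and 417 CPM, with log2 fold changes of 0.32 and 0.35 (edgeR adjusted p = 0.161 and 0.142). Sham_Saline replicate 1 lay above all the SNA_NAC samples for Slc7a1 (125 CPM) and inside their range for Slc38a2 (396 CPM). The log2 fold changes were -0.15 for Slc7a11, 0.02 for Slc3a2, -0.05 for Slc7a5 and -0.20 for Slc1a5. With offsets for GC share and length they were -0.55 for Slc7a11, 0.19 for Slc3a2, 0.28 for Slc7a5, which then passed (edgeR adjusted p = 0.00920), and 0.18 for Slc1a5, so the last 2 changed sign. Summed neutrophil markers did not overlap between these groups, at 197 to 259 CPM in SNA_NAC and 291 to 500.3 CPM in Sham_Saline, and their part in these results was not tested.

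SNA_NAC against SNA_Saline tests the thiol donor directly after the same injury. None of the 9 genes passed in edgeR or in DESeq2, and 0 had an unadjusted p under 0.05. Over all genes 0% passed in edgeR, where 314 genes had an unadjusted p under 0.05, and DESeq2 called 0 genes. Slc38a1, at 84.8, 92.2 and 77.6 CPM with saline and 98.5, 105 and 99.9 CPM with NAC, and Slc7a1, at 113, 111 and 105 against 123, 117 and 124 CPM, did not overlap between the groups, beside 14.9% of all genes in either direction. Both were higher with NAC, by 0.25 (95% interval -0.11 to 0.62) and 0.14 (-0.16 to 0.44) on the log2 scale. With offsets for GC share and length these differences were 0.10 for Slc38a1 and 0.0017 for Slc7a1. Slc1a4 differed by 0.08 (-0.10 to 0.26). Slc7a11 was at 2.35, 6.07 and 5.76 CPM with NAC and differed by -0.11 (-0.97 to 0.75), an interval too wide to tell whether the supply of a cysteine donor altered the mRNA of the cystine carrier. Summed Schwann cell markers were lower with NAC (7391 to 7527 against 7988 to 8613 CPM), as were neutrophil markers (197 to 259 against 296 to 476 CPM), without overlap, and their part in these values was not tested.

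DCA against LAM gives the response to injury of the central branch. None of the 9 genes passed in edgeR or in DESeq2, and 1, Slc7a5, had an unadjusted p under 0.05. Over all genes 0% passed in edgeR, with 793 genes at an unadjusted p under 0.05, and DESeq2 called 2. Groups did not overlap for 3 genes, Slc3a2, Slc7a5 and Slc1a5, all higher after injury, beside 21.7% of all genes in either direction. Slc7a5 (LAT1) was at 39.7, 46.8 and 45.9 CPM in LAM and at 55.8, 48.5 and 63.4 CPM in DCA. Its log2 fold change was 0.34 (95% interval 0.04 to 0.64, edgeR adjusted p = 0.624). The heavy chain Slc3a2 was at 85.2, 98.5 and 98.9 CPM in LAM and at 107, 103 and 130.2 CPM in DCA, with a log2 fold change of 0.26 (95% interval -0.02 to 0.55). Slc1a5 was at 28.4, 28.4 and 27.9 CPM in LAM and at 31.7, 31.2 and 33.9 CPM in DCA, with a log2 fold change of 0.19 (95% interval -0.09 to 0.48).

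These 3 genes have the most GC-rich transcripts of the 9, and the GC slope of the samples was -0.19 to -0.05 in LAM and -0.08 to 0.25 in DCA. The part of GC share in the difference was not tested. With offsets for GC share and length the log2 fold change was 0.11 for Slc7a5, 0.16 for Slc3a2 and -0.04 for Slc1a5. Summed neuron markers were also higher in DCA (9151 to 11292 against 8421 to 9131 CPM) and fibroblast markers lower (742 to 855 against 877 to 1014 CPM), both without overlap, and their part was not tested.

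The other carriers overlapped between DCA and LAM. Slc1a4 was at 63.7, 69.0 and 67.5 CPM in LAM and at 70.6, 68.8 and 63.8 CPM in DCA, with a log2 fold change of 0.02 (95% interval -0.16 to 0.20, edgeR adjusted p = 0.922). Slc7a3 was at 6.42, 6.12 and 6.65 CPM in LAM and at 7.35, 7.17 and 4.997 CPM in DCA, with a log2 fold change of 0.02. Slc38a1, Slc38a2 and Slc7a1 had log2 fold changes of -0.06, -0.12 and -0.04. Slc7a11 was at 9.21, 8.62 and 13.7 CPM in LAM and at 6.26, 10.2 and 4.63 CPM in DCA. In DCA, 2 samples lay below all the LAM samples and the other among them. The log2 fold change of -0.62 had a 95% interval from -1.44 to 0.19.

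Whether the peripheral and central responses differed was tested as an interaction, the log2 fold change of SNA_Saline against Sham_Saline minus that of DCA against LAM. Of the 9 genes Slc1a4 passed, and 1.61% of all genes did. The difference for Slc1a4 was 0.53 (SE 0.12, edgeR adjusted p = 0.0384), close to the whole of its sciatic response. When the replicate number entered as a block, the difference was 0.53 and the edgeR adjusted p 0.0532, and the call was lost in 13 of 24 alternatives, 9 of which left out 1 of the 12 samples, with adjusted p up to 0.123. It was kept without DCA replicate 1, SNA_Saline replicate 3 or Sham_Saline replicate 1. The difference was 0.66 for Slc7a3 (SE 0.27, edgeR adjusted p = 0.117) and 0.57 for Slc38a1 (SE 0.25, edgeR adjusted p = 0.133). For Slc7a11 it was 0.58 with a 95% interval from -0.60 to 1.77.

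Sham_H202 against Sham_Saline gives the effect of the oxidant without nerve injury. None of the 9 genes passed in edgeR or in DESeq2, and 1 had an unadjusted p under 0.05. Over all genes 0% passed in edgeR, with 1440 genes at an unadjusted p under 0.05, and DESeq2 called 4. Slc7a5 was the gene with the unadjusted p and also the one without overlap, at 43.2, 44.2 and 32.6 CPM with peroxide and 46.4, 60.9 and 49.8 CPM with saline, beside 5.43% of all genes in either direction. Its log2 fold change was -0.38 (95% interval -0.69 to -0.08, edgeR adjusted p = 0.449). The lowest of these values came from Sham_H202 replicate 3, the sample with the lowest GC slope and the fewest counts, and with offsets for GC share and length the log2 fold change of Slc7a5 was -0.11. Slc7a11, a gene that oxidants are known to induce through NRF2, was at 3.88, 3.08 and 5.09 CPM with peroxide, within the range of Sham_Saline, with a log2 fold change of -0.41 (95% interval -1.31 to 0.50). Slc1a4 was at 79.9, 77.7 and 71.2 CPM, of which the lowest lay within the Sham_Saline range, with a log2 fold change of 0.14 (95% interval -0.04 to 0.32, edgeR adjusted p = 0.453). The other 6 genes had log2 fold changes between -0.25 and 0.06.

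The surgical controls, Sham_Saline and LAM, were also compared, since levels are described over all 6 groups. Slc7a11 was at 7.24, 2.57 and 5.70 CPM in Sham_Saline and at 9.21, 8.62 and 13.7 CPM in LAM. It was the 1 gene of the 9 without overlap, lower in Sham_Saline, beside 30.6% of all genes in either direction, so separation of these 2 groups was common. The means were 5.17 ± 2.38 and 10.5 ± 2.80 CPM (SD, n = 3), with a log2 fold change of -1.04 (SE 0.39, edgeR adjusted p = 0.112). None of the 9 genes passed in edgeR or in DESeq2, 2 had an unadjusted p under 0.05 (Slc7a11 and Slc3a2), and 0.0699% of all genes passed in edgeR while DESeq2 called 1083. Without Sham_Saline replicate 1, where 31.8% of all genes passed, both genes did, Slc7a11 at -1.40 (edgeR adjusted p = 0.0296) and Slc3a2 at 0.42 (edgeR adjusted p = 0.0276). Within the 3 lanes the Slc7a11 difference was -0.34, -1.71 and -1.25. Transcripts of Slc7a11 are at percentile 8.21 of GC share among all genes and those of Slc3a2 at percentile 70.3, and the GC slope was higher in every Sham_Saline sample than in every LAM sample. With offsets for GC share and length the log2 fold change was -0.84 for Slc7a11 and 0.13 for Slc3a2.

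The replicates themselves varied along that GC axis. Slc7a5 and Slc1a5, with transcripts of 56.3% and 56.7% GC, were highest in the replicate with the highest GC slope in 6 of 6 groups, and Slc3a2 (53.4%) in 5 of 6. Slc38a2 (44.7%) was lowest in that replicate in 6 of 6 groups, Slc7a11 (40.7%) in 5 of 6 and Slc38a1 (48.5%) in 4 of 6. Slc1a4 (52.9%) was highest there in 3 of 6 groups and lowest in 2. Slc7a1 (51.3%) was highest there in 1 group and lowest in 2, and Slc7a3 (49.4%) highest in 1 and lowest in 3. The share of all genes with such patterns was not computed. The heavy chain and LAT1 had their highest replicate in common in 5 of 6 groups, whereas Slc7a11 was highest in 1 group of 6 where Slc3a2 was. Sham_Saline replicate 1 had the lowest GC slope of its group and replicate 2 the highest slope of all 18 samples.

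**Figure D3:**
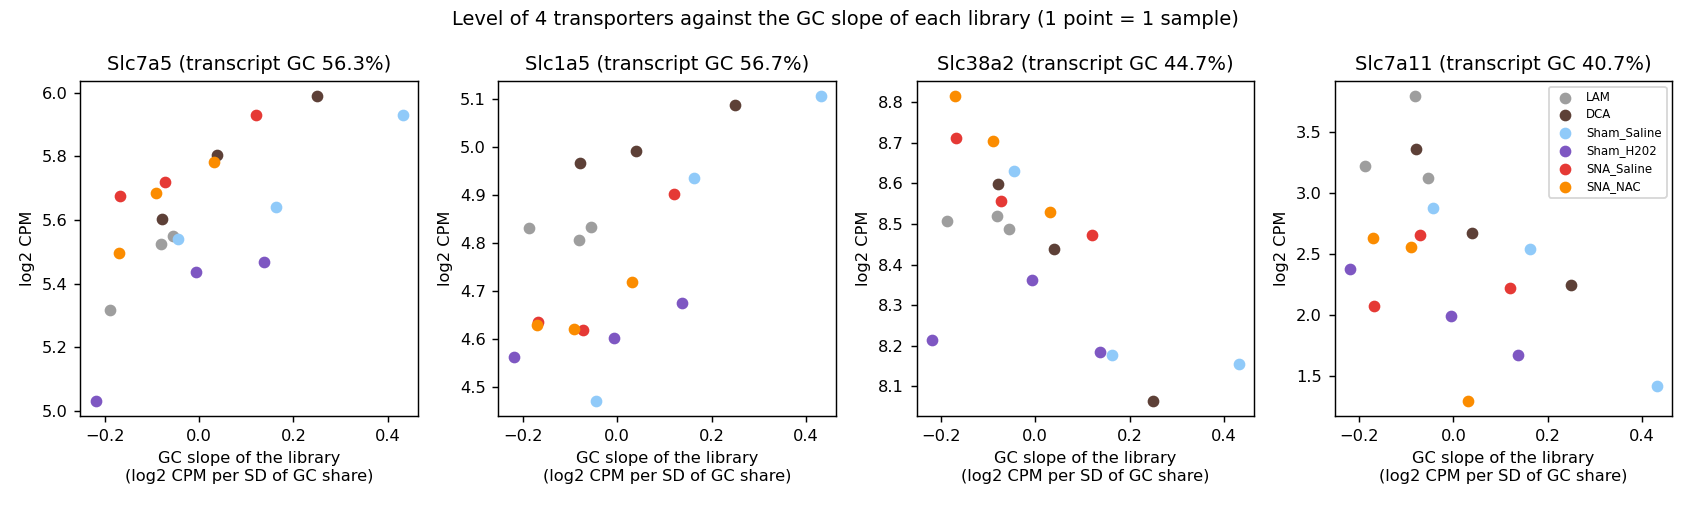
Log2 CPM of 4 transporters in each of the 18 samples (points, coloured by group) against the GC slope of the library, the change in log2 CPM per SD of transcript GC share over all genes. The GC-rich Slc7a5 and Slc1a5 are higher in libraries with a higher slope, and Slc38a2 and Slc7a11 are lower in them; the points share libraries and depth, and no test was made.

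The number of carriers that passed after sciatic injury depended on the sham samples used and on whether GC share was modelled. Without Sham_Saline replicate 1 it was 5 of 9, where 16.2% of all genes passed, namely Slc1a4, Slc38a1 (log2 fold change 0.77, edgeR adjusted p = 0.00961), Slc38a2 (0.42, 0.0459), Slc7a3 (0.70, 0.0412) and Slc7a1 (0.41, 0.0330), all higher. With edgeR offsets for GC content and length it was also 5 of 9, where 7.44% of all genes passed, namely Slc1a4, Slc7a5 (0.36, adjusted p = 0.00159), Slc38a1 (0.50, 0.00726), Slc7a1 (0.26, 0.0478) and Slc7a3 (0.59, 0.0493), all higher. Slc1a4 passed in both, with a log2 fold change between 0.49 and 0.66 over all 18 alternatives. In the comparison of SNA_NAC with Sham_Saline the count was 6 of 9 without Sham_Saline replicate 1, where 37.3% of all genes passed, and Slc1a5 was the one of the 6 that fell (-0.37, edgeR adjusted p = 0.0160). With the offsets it was 4 of 9, where 7.65% of all genes passed.

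**Figure D4:**
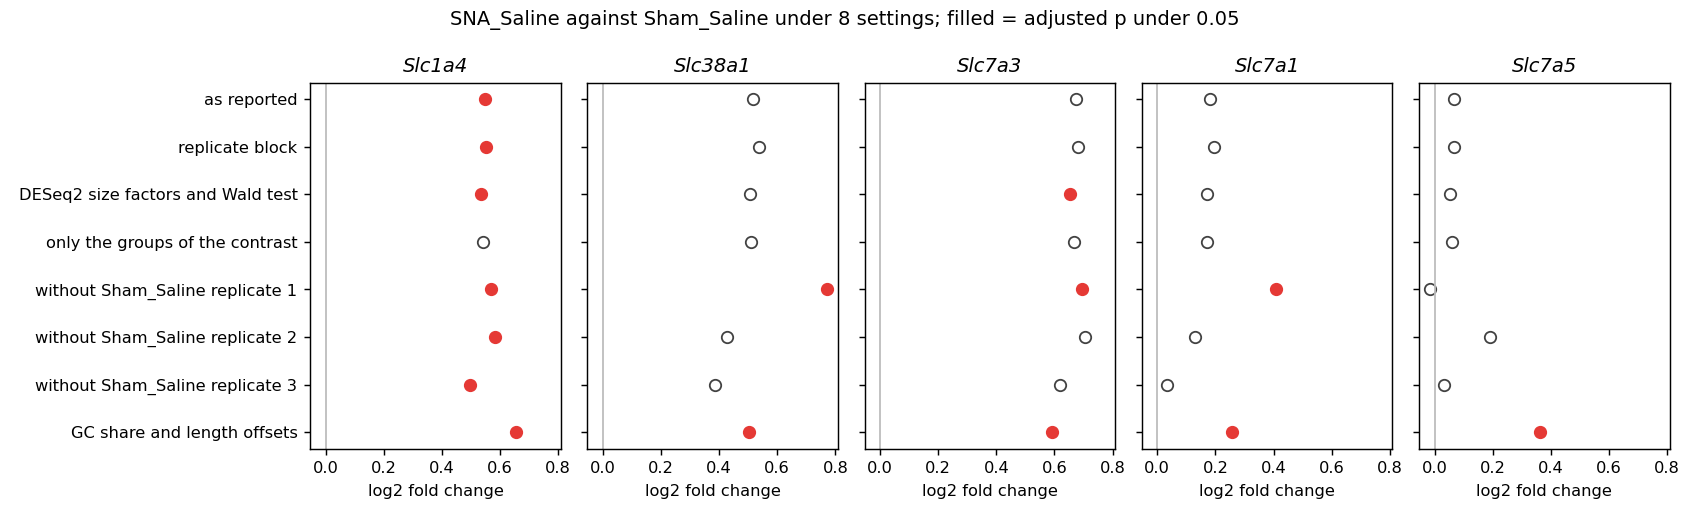
Log2 fold change of 5 transporters in SNA_Saline against Sham_Saline under 8 analysis settings (rows), where filled red points have an adjusted p under 0.05. Slc1a4 stays between 0.49 and 0.66 in these settings and is open only where SNA_Saline and Sham_Saline alone entered the fit, whereas Slc38a1, Slc7a3, Slc7a1 and Slc7a5 are filled in some settings and open in others.

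Related genes in 3 sets were read beside the carriers. Of 29 measured genes for other amino acid transporters, 0 passed in SNA_Saline against Sham_Saline in edgeR, and their median log2 fold change was -0.25. Of 29 measured genes of the amino acid response, 3 rose and 0 fell, with a median of 0.14, where 2.73% of all genes passed and 340 of those 430 were higher. That median was not particular to sciatic injury. It was 0.15 in DCA against LAM and 0.21 between the controls, Sham_Saline against LAM. In the interaction the median of the set was -0.007, with 13 genes above 0 and 16 below. Asns, asparagine synthetase, rose from 205 ± 9.14 to 268 ± 11.8 CPM (SD, n = 3; log2 fold change 0.39, edgeR adjusted p = 0.0212). Gars, glycyl-tRNA synthetase, rose from 335 ± 8.17 to 440.0 ± 20.3 CPM (0.40, edgeR adjusted p = 0.0183). Mthfd2, a mitochondrial enzyme of folate metabolism, rose from 34.4 ± 2.80 to 44.98 ± 2.04 CPM (0.39, edgeR adjusted p = 0.0409), a call lost in 11 of 18 alternatives, among them the replicate block (edgeR adjusted p = 0.0721). The calls of Asns and Gars were each lost in 4 of 18, namely with only the compared groups in the fit and without Sham_Saline replicate 2, SNA_Saline replicate 1 or SNA_Saline replicate 2.

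Of 21 measured genes of glutathione and cysteine handling, 2 rose and 0 fell after sciatic injury, beside the same 2.73% of all genes, with a median log2 fold change of -0.08. Srxn1, sulfiredoxin, which repairs oxidized peroxiredoxins, rose from 521 ± 13.8 to 1002 ± 45.7 CPM (SD, n = 3; log2 fold change 0.94, edgeR adjusted p = 9.71e-06). Txnrd1, thioredoxin reductase, rose from 159 ± 19.1 to 221 ± 2.94 CPM (0.47, edgeR adjusted p = 0.0128), a call lost in 3 of 18 alternatives, with only the compared groups in the fit (0.288), without Sham_Saline replicate 3 (0.0517) and without SNA_Saline replicate 1 (0.0713). Both are known NRF2 targets, as is Slc7a11, whose estimate was near 0 with a wide interval. No other gene of this set passed, and of its 21 genes 9 had estimates above 0 and 12 below. In the interaction, Asns (0.54, edgeR adjusted p = 0.0386, and 0.0690 with the replicate block) and Srxn1 (0.83, edgeR adjusted p = 0.00207) passed, both higher in the sciatic response. The Asns call was lost in 10 of 24 alternatives, 8 of them leaving out 1 sample (adjusted p up to 0.118), and its value was 0.32 with the offsets. The samples were Sham_Saline replicate 2, SNA_Saline replicates 1 and 2, all 3 LAM replicates and DCA replicates 2 and 3. In edgeR 0 genes of the 3 sets passed in DCA against LAM, in SNA_NAC against SNA_Saline or in Sham_H202 against Sham_Saline.

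The genes most like 3 of the carriers over the 18 samples were listed as a description, by Pearson r of log2 CPM among 12991 genes with a mean count of at least 50. The points share libraries, depth and GC slope. For Slc1a4 they were Lmo7 (r = 0.979), at 7.38 ± 0.813 CPM in Sham_Saline, 22.3 ± 2.55 in SNA_Saline, 6.11 ± 0.678 in LAM and 6.09 ± 1.15 in DCA, and Srxn1 (r = 0.978). Both have the pattern of Slc1a4, high in the 6 samples with sciatic injury, with larger folds. For Slc38a1 they were Iars, isoleucyl-tRNA synthetase (r = 0.983), at 113 ± 23.4 CPM in Sham_Saline, 145 ± 13.6 in SNA_Saline and 163 ± 1.95 in SNA_NAC, and Pcsk1, a prohormone convertase (r = 0.976). For Slc7a11 the closest were Prkd1, protein kinase D1 (r = 0.883), at 34.4 ± 1.41 CPM in LAM and 27.9 ± 3.53 in Sham_Saline, and Tnfrsf11a (r = 0.873), lower likenesses than for the better measured carriers.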

How the data were processed

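Counts per gene and FPKM values were deposited by the authors for 18 samples. The submitters' processing notes list TopHat2 2.0.12, Bowtie2 2.2.3, SAMtools 0.1.19, HTSeq 0.6.0, edgeR 3.8.6, limma 3.22.7, R 3.1.1, FastQC 0.10.1 and mm10, with no role stated; strand use in counting and the annotation are not given in the sources used here. The deposited FPKM of a gene is its count corrected for length and library size, by the usual meaning of the unit, and was used to compare levels between genes.

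The edgeR quasi-likelihood test (version 4.0.16, R 4.3.3; TMM factors, filterByExpr) was fitted to the counts of all 15730 genes and 18 samples at once, in 7 contrasts, with Benjamini-Hochberg adjustment and a threshold of 0.05. Each SE was derived from the F statistic, as the size of the log2 fold change over the root of F, and intervals are 95%. Log2 CPM used a prior count of 2. Exact tests of 3 against 3 cannot go below 0.10, so single values were tested through the fit. Alternatives were DESeq2 1.42.0, RLE and upper-quartile factors, no filter, a minimum of 10 counts in each sample, only the compared groups, a replicate block, a threshold of 0.10, limma 3.58.1 on log2(FPKM + 1) and log2(FPKM + 0.1), offsets for GC share and length (splines with 5 degrees of freedom, longest GENCODE transcript, 15648 genes) with and without the block, and leaving out each sample. The scripts were tested on simulated data.

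Replicate numbers equal the sequencing lane in the labels, which is the source of the pairing; same-numbered samples are different pools of mice. Mean correlations of the deviations of same-numbered samples ran from -0.36 (SNA_NAC and Sham_Saline) to 0.31 (Sham_Saline and LAM), with -0.24 for SNA_Saline and Sham_Saline and 0.07 for DCA and LAM. Depth was 6472476 to 42435331 counts, without molecular identifiers. The p-values measure the spread between pools of 2 mice.

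The 9 genes, the 3 related sets (other amino acid transporters, amino acid response, glutathione and cysteine handling) and 10 marker lists were chosen with earlier results of these data known. Cth and Chac1 are in both of the last 2 sets. Named were all 9 genes, up to 5 genes of each set with the smallest p among those passing in SNA_Saline against Sham_Saline, and the 2 genes most like Slc7a11 and each carrier that passed. The markers Adgre1, Mog and Hapln2 were not analysed here. Figures were drawn with matplotlib 3.10.9.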

Additional observations from a re-analysis of the deposited data

Results flagged for a closer look

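Slc1a4 was flagged for a difference between the injury sites. Its log2 fold change after sciatic injury exceeded that after dorsal column injury by 0.53. This difference passed its own test (edgeR interaction, SE 0.12, adjusted p = 0.0384). Slc1a4 was higher in 3 of 3 SNA_Saline samples than in every Sham_Saline sample, while DCA and LAM overlapped. Of all genes, 19.1% did not overlap between SNA_Saline and Sham_Saline and 21.7% between DCA and LAM, in either direction. With the replicate block the edgeR adjusted p of the difference was 0.0532, and over the 24 alternatives the adjusted p ran from 7.39e-04 to 0.123. The call was lost in 13 of the 24, most of them on leaving out 1 sample. The responses also rest on different surgical controls, Sham_Saline and LAM, which possibly differ in fluid.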

How the results depend on the processing

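The number of carriers passing in SNA_Saline against Sham_Saline was 1, and became 0 with only the compared groups in the fit (0.422% of all genes passed), 2 with DESeq2 (5.49%) or a threshold of 0.10 (5.23%), 5 with offsets for GC share and length (7.44%), 5 with those offsets and the replicate block (6.37%), and 1 to 5 on leaving out 1 sample. In SNA_NAC against Sham_Saline it was 2, and became 0, 4 and 5 with only the compared groups (0.433% of all genes), the offsets (7.65%), and the offsets with the block (6.97%), and 1 to 6 on leaving out 1 sample. Slc7a3 was added there with DESeq2 (adjusted p = 0.0257, 7.77% of all genes) or at a threshold of 0.10 (edgeR adjusted p = 0.0778, 8.19%). In the interaction the number passing was 1, and became 0 with only the compared groups (0.961%), with the replicate block (0.750%) and with limma on log2(FPKM + 1) (1.35%) or log2(FPKM + 0.1) (1.23%), and 0 to 5 on leaving out 1 sample. In Sham_Saline against LAM it was 0, and 0 to 2 on leaving out 1 sample. Each upper end came without Sham_Saline replicate 1, where 16.2%, 37.3%, 29.2% and 31.8% of all genes passed in these 4 comparisons. In DCA against LAM, SNA_NAC against SNA_Saline and Sham_H202 against Sham_Saline it was 0 in all 18 alternatives of each. Slc7a5 in SNA_NAC against Sham_Saline turned from -0.05 to 0.28 under the offsets (edgeR adjusted p = 0.00920), and to 0.28 with the block as well (0.0145). The causes were not tested. Apart from Slc1a4 and Asns in the interaction and Mthfd2 after sciatic injury, the replicate block without offsets changed no other call of the 9 carriers, nor of Asns, Gars, Mthfd2, Srxn1 or Txnrd1 in SNA_Saline against Sham_Saline or the interaction; the genes named only for their likeness to a carrier were not compared in this way. For Slc7a11, changes within its wide intervals remain undetectable.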
